A study of Mus musculus with 15 samples.

Results

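The semaphorin, ephrin and Slit guidance genes of the embryonic mouse pancreas are 60 of the 25292 genes in the count table. They were chosen by symbol, with earlier results of these data known. The rule takes every gene that encodes a semaphorin of class 3 to 7 (20 genes), a plexin (9), a neuropilin (2), an Eph receptor (14), an ephrin (8), a Slit (3) or a Robo (4). All 60 GENCODE M21 symbols that match this rule were present. For 57 of them there were enough reads to test, whereas Epha6, Epha10 and Robo3 had at most 9 reads in any library and were not tested.

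RNA was sequenced from 15 strand-specific poly(A) libraries of C57/Bl6J mouse pancreas, 3 for each of 5 groups, and each library pooled up to 3 pancreata. Whole pancreata were taken at 14.5 days post coitum (dpc) from wild-type (wt) embryos and from embryos labelled S1pr2 null, which carry the S1pr2tm1Rlp allele, a disruption of the gene for a receptor of the signalling lipid sphingosine-1-phosphate (S1p) in every cell and throughout development. Wild-type dorsal buds of the same stage were cultured at an air-liquid interface for 2 days, in standard medium (control), with 15 μM of the S1pr2 antagonist JTE013 (JTE), or with 15 μM JTE013 and 50 ng/ml of connective tissue growth factor, a secreted matrix-associated protein (JTE + CTGF). The comparisons address how guidance genes differ without the receptor, under its antagonist, and when CTGF is added to the antagonist.

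Guidance molecules were named for their work in steering axons, and the same ligand and receptor pairs shape vessels, branching epithelia and tissue boundaries. Secreted class 3 semaphorins bind neuropilins that sit beside A-type plexins, while membrane-bound semaphorins bind plexins directly, and the plexin then acts on small GTPases and the cytoskeleton. Ephrins are held on the cell surface, by a lipid anchor in the A class and by a transmembrane segment in the B class, so they meet Eph receptor tyrosine kinases only on touching cells and both cells can receive a signal, whereas secreted Slits bind Robo receptors and usually repel.

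Upstream sequences were read from the RefSeq promoter table (build GRCm38.p6, the same coordinates as mm10), which held 53 of the 60 genes. The word GGAATG, searched on both strands (GGAATG or CATTCC), is the core recognised by TEAD factors, the DNA-binding partners of YAP, a coactivator studied downstream of S1p in this tissue. It occurred within 250 bases before a start site of 7 of the 53 genes (13.2%), against 14.4% of all genes and 12.6% of all promoters in the table: Efnb2, Epha1, Epha2, Epha3, Plxnb1, Plxnd1 and Sema4a. A match is a description of the letters and not a binding site. Of the 7, Efnb2, Epha2, Epha3, Plxnb1 and Sema4a were lower in JTE than in control explants, and Epha1 and Plxnd1 were not called. In that comparison 35.1% of all guidance genes tested and 26.2% of all genes tested were lower. A link of the word to these differences was not tested. The sequences below, chosen after the values were seen, are those of the 3 of these 7 genes that met the size criterion of the study (given with the first comparison) in a comparison between explant groups, and of Ephb1, which had no match and was the member furthest above wt in the libraries labelled S1pr2 null. Each runs 5′ to 3′ towards the start site, which follows the last base, with the word in capitals: Plxnb1 at chr9:109095186-109095435 on the plus strand, with 142 bases between the word and the start; Epha2 at chr4:141300971-141301220, plus strand, with 237 and 50 bases; Epha3 at chr16:63864176-63864425, minus strand, with 238 bases; and Ephb1 at chr9:102354694-102354943, minus strand.
Plxnb1: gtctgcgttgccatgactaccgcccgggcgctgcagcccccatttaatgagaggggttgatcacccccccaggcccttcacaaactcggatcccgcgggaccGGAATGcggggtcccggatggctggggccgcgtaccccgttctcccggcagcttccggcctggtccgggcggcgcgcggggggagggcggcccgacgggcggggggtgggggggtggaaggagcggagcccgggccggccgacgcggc
Epha2: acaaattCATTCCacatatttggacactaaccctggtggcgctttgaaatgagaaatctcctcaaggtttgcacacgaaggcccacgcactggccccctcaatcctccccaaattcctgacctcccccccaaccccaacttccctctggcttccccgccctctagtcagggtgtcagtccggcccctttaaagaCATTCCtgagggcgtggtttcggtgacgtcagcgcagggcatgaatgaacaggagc
Epha3: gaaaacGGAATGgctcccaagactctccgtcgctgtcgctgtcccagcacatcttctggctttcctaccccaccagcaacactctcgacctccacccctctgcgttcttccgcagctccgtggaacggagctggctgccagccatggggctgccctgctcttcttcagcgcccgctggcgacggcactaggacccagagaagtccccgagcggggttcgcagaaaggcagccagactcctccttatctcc
Ephb1: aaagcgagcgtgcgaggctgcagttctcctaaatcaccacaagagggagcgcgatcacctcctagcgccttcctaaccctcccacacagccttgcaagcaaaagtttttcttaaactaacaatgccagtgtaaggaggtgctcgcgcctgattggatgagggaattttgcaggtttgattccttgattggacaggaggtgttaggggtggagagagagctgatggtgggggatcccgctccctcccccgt

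Several of these genes are neighbours in the genome (mm10). Efna1, Efna3 and Efna4 lie in a row on the minus strand of chromosome 3, at chr3:89271733-89281142, chr3:89313899-89322965 and chr3:89333390-89338028. Class 3 semaphorin genes Sema3d (chr5:12383166-12588943), Sema3a (chr5:13396784-13602565), Sema3e (chr5:14025276-14256689) and Sema3c (chr5:17574281-17730268) lie along chromosome 5, and Sema3b (chr9:107597674-107609229) and Sema3f (chr9:107681502-107710475) along chromosome 9. All 60 are annotated as protein-coding. More than 1% of the 50-base words of Epha1 (2.59%), Plxna2 (1.53%) and Sema3a (1.18%) also occur at another locus, and 14.1% of the exonic bases of Efna3 overlap Gm15998 on the opposite strand, so reads could be shared or lost there.

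Levels are given as normalised read counts (reads divided by the relative effective library size, so comparable between libraries for 1 gene) or, between genes, as RPKM (reads scaled by gene length in kilobases and by library size). Means carry the SD of 3 libraries and log2 differences carry their standard error (SE). A set of 18 vascular, epithelial and Slit pathway members (Sema3a, Sema3c, Sema3e, Nrp1, Nrp2, Plxnd1, Efnb1, Efnb2, Ephb2, Ephb3, Ephb4, Epha2, Efna1, Slit2, Slit3, Robo1, Robo2 and Robo4) are described in every comparison whether or not they changed. A gene was called higher or lower at an adjusted p below 0.05 in the quasi-likelihood test of edgeR, and "called" is used in this sense. The percentage beside a count of called genes is the share of all 16245 genes tested that were called the same way. Libraries of the groups compared are said not to overlap where every value of one group lies above every value of the other, which held for 46.3% of all genes tested for the libraries labelled S1pr2 null against wt, 56.7% for JTE against control, 64.8% for JTE + CTGF against control, 40.2% for JTE + CTGF against JTE and 63.8% for control against wt. In bulk tissue, fewer cells of a type and less RNA per cell cannot be told apart.

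Library totals ran from 11402804 to 13828737 counts. S1pr2 itself had 858, 796 and 812 reads in wt and 1486, 1368 and 1609 in the libraries labelled S1pr2 null, higher by 0.83 ± 0.07 on the log2 scale (adjusted p = 4.5e-07). The paper describes the allele as an exon disrupted by a Neo cassette, and counts per gene do not show which part was read. By western blot it reports no S1pr2 protein in null pancreata of the same stage. The counts cannot check the genotype of these libraries, so results for that group rest on its label. Summed levels of 5 pancreas epithelium markers (Pdx1, Ptf1a, Nkx6-1, Sox9 and Cpa1) were 1163 to 1672 RPKM in wt, 612 to 654 in the libraries labelled S1pr2 null (2 of 5 called lower), 3525 to 4767 in control, 3689 to 7284 in JTE (1 higher and 2 lower) and 6109 to 7038 in JTE + CTGF, and none of the 53 markers of 9 cell type lists was at 0 in every library. Most reads of the pancreas epithelium list came from Cpa1, with 25026, 34000 and 23267 in wt and 87999, 100331 and 70940 in control. Against wt, 2 of the 5 were higher and 1 lower in control. Of 6 general epithelial markers, 5 were lower in the libraries labelled S1pr2 null (684 to 726 RPKM summed, against 910 to 968 in wt) and 5 with JTE013 (795 to 999 against 1438 to 1653 in control). Of 6 endocrine markers, 5 were lower in the libraries labelled S1pr2 null (524 to 623 against 1176 to 1413) and all 6 with JTE013 (479 to 709 against 4233 to 4769). Of 8 endothelial markers, the libraries labelled S1pr2 null had 2 higher (145 to 147 against 131 to 137) and 6 were lower with JTE013 (116 to 130 against 146 to 175). Of 8 mesenchymal markers, 3 were higher and 4 lower in the libraries labelled S1pr2 null (891 to 1061 against 1179 to 1186), and 1 was higher and 2 lower with JTE013 (1214 to 1481 against 1139 to 1190). Most reads of the mesenchymal list came from the collagens Col1a1 and Col3a1. Col1a1 had 43372, 43687 and 43925 reads in wt and 35988, 29960 and 37241 in the libraries labelled S1pr2 null. Pdgfra went the other way, with 1924, 1531 and 1722 and 3024, 3260 and 3472. The median log2 difference of the 8 by genotype label was 0.01. Of 8 neural crest neuron and glia markers, 2 were lower in the libraries labelled S1pr2 null (30.6 to 34.7 against 40.1 to 41.1), and 1 was higher and 1 lower with JTE013 (37.1 to 39.97 against 47.0 to 51.0). Of the mesothelial list (Wt1, Upk3b, Msln and Krt19), 1 of 4 was lower in the libraries labelled S1pr2 null (56.6 to 58.9 against 69.9 to 75.8) and 3 of 4 with JTE013 (57.7 to 62.4 against 97.0 to 102). Krt19 also encodes CK19, the duct marker of the study. It had 972, 911 and 792 reads in wt and 510, 543 and 558 in the libraries labelled S1pr2 null. Wt1 went the other way, with 682, 587 and 583 and 759, 793 and 981. These sums are therefore not a measure of mesothelium alone. Leukocyte markers were lower for all 4 with JTE013 (27.2 to 33.0 against 46.6 to 54.5), and none of the 4 was called in the libraries labelled S1pr2 null (19.8 to 23.0 against 19.2 to 20.7). Of 4 red blood cell markers, 1 was higher and 1 lower in the libraries labelled S1pr2 null (1457 to 2002 against 1087 to 1356). None of the 4 was called with JTE013 (20.6 to 62.4 against 16.6 to 45.1). The part of these lists in the results on guidance genes was not tested.

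The 60 genes spanned a wide range of levels in the wt pancreas, and receptors headed it. Plxnb2, a receptor for class 4 semaphorins, was highest at 68.0 ± 1.52 RPKM. It was followed by Ephb4 at 56.4 ± 0.847, the receptor for ephrin-B2 known from veins, and by the secreted semaphorin Sema3f at 43.0 ± 3.02. Plxnd1 (38.1 ± 1.07) and Nrp1 (37.9 ± 1.87), receptors best known from endothelium, came next and overlapped between libraries, whereas each of the first 3 stood clear of the next in every wt library. Efnb1, Plxnb1 and Plxna1 followed at 30.5, 26.4 and 21.1 RPKM, each clear of the next. Below them most neighbours in the order overlapped, with 45 of all 59 neighbouring pairs overlapping.

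**Figure D1:**
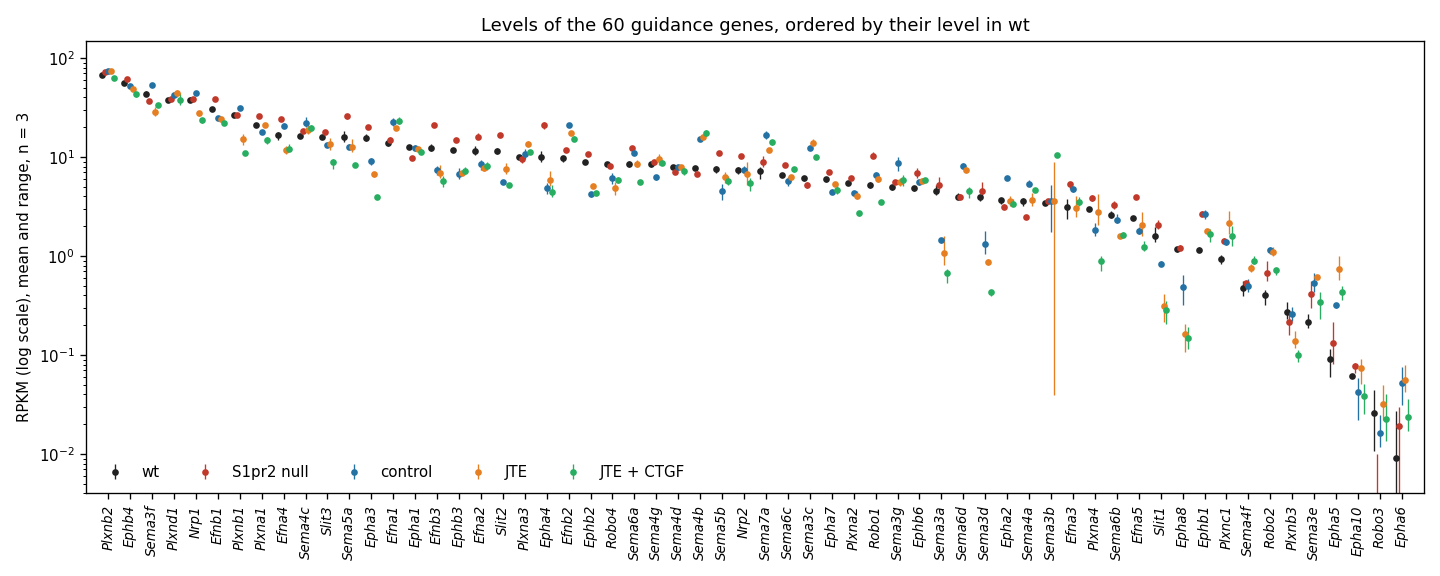
Mean RPKM of each of the 60 genes (log scale), ordered by wt level, in the 5 groups. Points are means of 3 libraries and lines run from the lowest to the highest library; lines that reach the lower edge end at 0. Plxnb2 has the highest mean in all 5 groups, and the long line of Sema3b in JTE runs from 0.0397 to 8.84 RPKM.

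Among semaphorins in wt, the class 3 genes after Sema3f were lower, at 6.10 RPKM for Sema3c, 5.01 for Sema3g, 4.59 for Sema3a, 3.95 for Sema3d, 3.46 for Sema3b and 0.216 for Sema3e. Class 4 was led by Sema4c at 16.2 RPKM, with Sema4g, Sema4d, Sema4b and Sema4a at 8.46, 7.94, 7.75 and 3.62 and Sema4f at 0.475. Sema5a and Sema5b stood at 15.8 and 7.65 RPKM, Sema6a, Sema6c, Sema6d and Sema6b at 8.55, 6.60, 3.98 and 2.61, and the lipid-anchored Sema7a at 7.23. All 20 semaphorin genes were therefore detected, over a range from below 1 to 43.0 RPKM. Of their receptors, Plxna3, Plxna2 and Plxna4 stood at 10.1, 5.53 and 2.98 RPKM, Plxnc1 and Plxnb3 at 0.929 and 0.271, and Nrp2 at 7.40.

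Ephrin levels in wt after Efnb1 were 16.6 RPKM for Efna4, 13.7 for Efna1, 12.3 for Efnb3, 11.6 for Efna2, 9.71 for Efnb2, 3.16 for Efna3 and 2.41 for Efna5. Eph receptors after Ephb4 were Epha3 (15.7 RPKM), Epha1 (12.7), Ephb3 (11.9), Epha4 (10.1), Ephb2 (8.83), Epha7 (5.98), Ephb6 (4.92), Epha2 (3.65), Epha8 (1.18) and Ephb1 (1.16), with Epha5, Epha10 and Epha6 below 0.1. Ephb4 alone thus carried most of the EphB level, 56.4 of a summed 83.2 ± 1.09 RPKM. Slit3 and Slit2 stood at 16.1 and 11.5 RPKM and Slit1 at 1.57. The endothelial Robo4 was the highest Robo at 8.57 RPKM, ahead of Robo1 at 5.27, Robo2 at 0.406 and Robo3 at 0.0258.

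In the libraries labelled S1pr2 null, guidance genes were mainly on the higher side, 7 of 8 ephrins among them. Of the 57 genes tested 27 were higher than in wt (12.6% of all genes tested) and 5 were lower (13.3%), with a median log2 difference of 0.27 against −0.01 over all genes. Higher were 7 of 8 ephrins, 7 of 12 Eph receptors, 6 of 20 semaphorins, 3 of 9 plexins, 1 of 2 neuropilins, 1 of 3 Slits and 2 of 3 Robos. Lower were the semaphorins Sema3c, Sema3f, Sema4a and Sema4b and the Eph receptor Epha1. By the criterion of the study (protein-coding, adjusted p no higher than 0.1, fold change over 1.6 or under 0.6, and over 100 normalised counts on average in one of the groups) 8 were higher (1.39%) and 0 lower (1.62%), while 5 were lower in the quasi-likelihood test of edgeR, as given above, and 4 with DESeq2. Of the 32 calls 23 stood in each of 21 other fits. Over the fits that left out 1 library, 21 to 28 were higher and 3 to 5 lower, with 3 lower without wt 2.

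**Figure D2:**
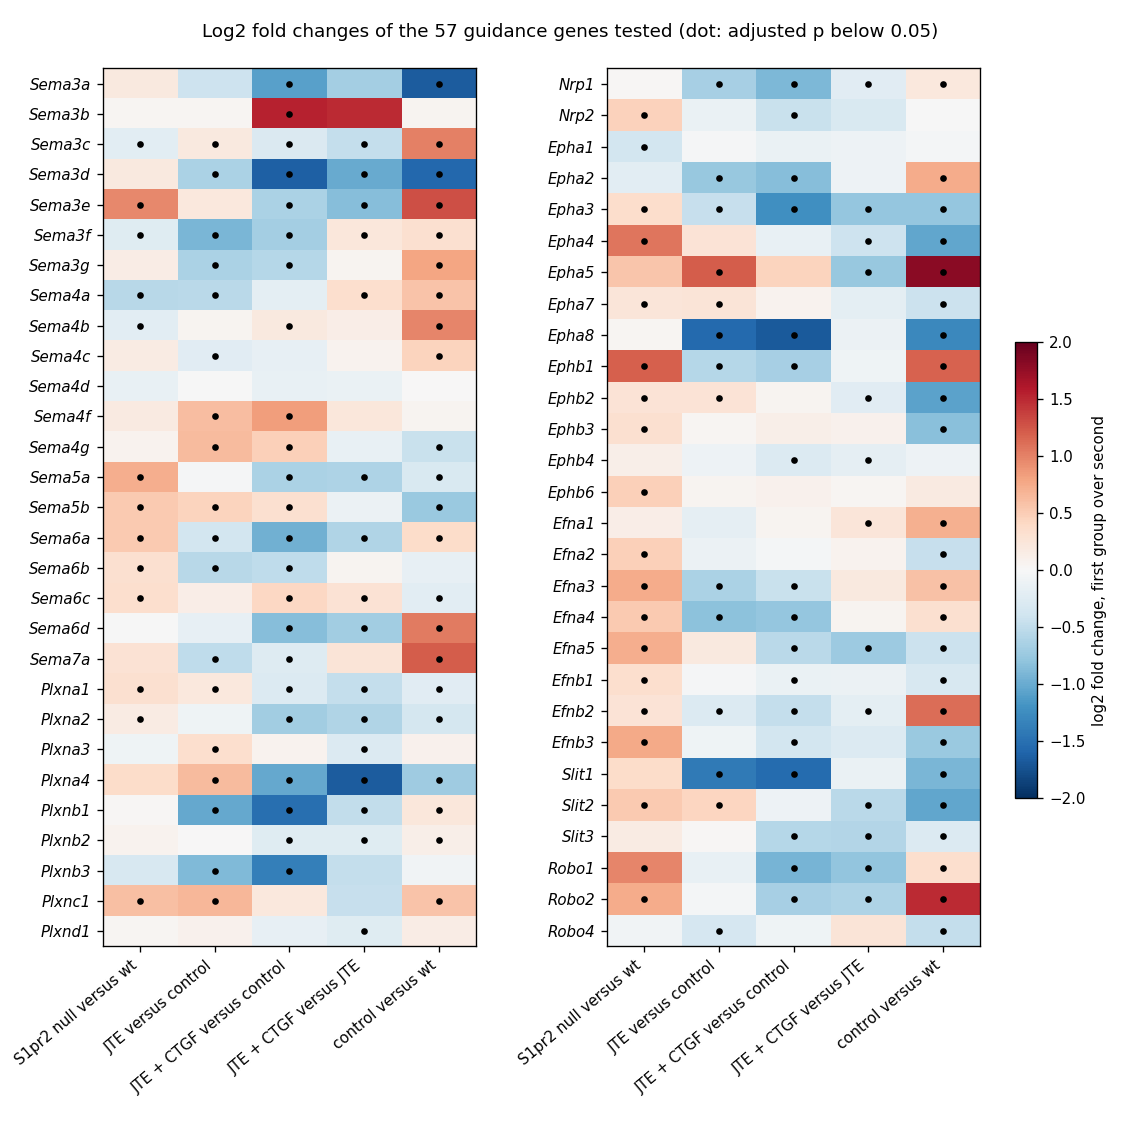
Log2 difference of each tested guidance gene in the 5 comparisons, with genes grouped by family. Red is higher and blue lower in the first group named, and dots mark an adjusted p below 0.05. The column of the libraries labelled S1pr2 null is mainly on the higher side, with 27 higher and 5 lower, and the column of JTE + CTGF against control is mainly on the lower side, with 6 higher and 34 lower.

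Among the ligands, Efnb3, an ephrin of the transmembrane class, had 545, 473 and 459.8 normalised counts in the wt libraries and 851, 843 and 805 in those labelled S1pr2 null. The groups stood well apart, and Efnb3 rose by 0.76 ± 0.10 on the log2 scale (adjusted p = 3.67e-05). Efna5, a lipid-anchored ephrin, had 116, 127 and 123 in wt and 211, 193 and 202, a rise of 0.72 ± 0.15 (adjusted p = 0.0021). Its neighbour in class, Efna3, had 114, 71.8 and 103 and 173, 167 and 146, with every library labelled S1pr2 null above every wt library. This was a rise of 0.74 ± 0.18 (adjusted p = 0.00509), in a gene whose exons overlap an antisense gene as given above. Efna4, Efna2, Efnb1 and Efnb2 rose by 0.53 ± 0.09, 0.47 ± 0.10, 0.34 ± 0.05 and 0.27 ± 0.07, whereas the Epha2 ligand Efna1 was not called, at 0.13 ± 0.09 (95% interval −0.06 to 0.31, adjusted p = 0.306). Summed over genes, A-class ephrins went from 47.5 ± 3.78 to 64.3 ± 2.13 RPKM and B-class ephrins from 52.5 ± 3.16 to 71.0 ± 2.30.

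Eph receptors moved with them. Ephb1 had 94.5, 90.0 and 99.5 normalised counts in wt and 208, 206 and 233 in the libraries labelled S1pr2 null, the largest difference of the 8 genes that met the criterion, at 1.19 ± 0.12 (adjusted p = 2.11e-06). Epha4, which binds ephrins of both classes, had 907, 700.2 and 792 and 1813, 1721 and 1527. No library of either group came near the other, and Epha4 rose by 1.07 ± 0.12 (adjusted p = 9.03e-06). Ephb2 rose by 0.28 ± 0.05 and Ephb3 by 0.32 ± 0.07, to 1694 ± 65.4 and 1175 ± 27.3 normalised counts (SD, n = 3), and both calls held in each fit that left out 1 library. Epha3 and Ephb6 rose by 0.35 ± 0.06 and 0.48 ± 0.09. Ephb4 (0.11 ± 0.05, adjusted p = 0.136) and Epha2 (−0.20 ± 0.10, adjusted p = 0.139) were not called. Epha1 fell by 0.37 ± 0.06 (adjusted p = 0.000235).

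Slits and Robos included some of the largest changes. Slit2 had 2354, 2050 and 2128 normalised counts in wt and 3164, 3056 and 3190 in the libraries labelled S1pr2 null, a rise of 0.53 ± 0.08 (adjusted p = 0.000103). Its receptor Robo1 had 510.4, 463 and 527 and 934, 929 and 1073. Every library labelled S1pr2 null stood far above every wt library, and Robo1 rose by 0.97 ± 0.08 (adjusted p = 2.11e-07). Robo2, a closely related receptor, had 92.7, 93.9 and 65.7 and 115, 124 and 183, a rise of 0.75 ± 0.17 (adjusted p = 0.0043) with the 3 libraries labelled S1pr2 null spread widely. Slit3 was not called at 0.17 ± 0.09 (95% interval −0.02 to 0.35), nor was the endothelial Robo4 at −0.07 ± 0.09 (−0.26 to 0.13).

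Semaphorins were split. Sema5a, a membrane semaphorin with thrombospondin repeats, had 2484, 1942 and 1991 normalised counts in wt and 3544, 3319 and 3726 in the libraries labelled S1pr2 null, clear of each other, and rose by 0.72 ± 0.10 (adjusted p = 8.29e-05). Sema5b rose by 0.53 ± 0.11, Sema6a by 0.52 ± 0.07 and Sema6c by 0.34 ± 0.07. Sema4a, a membrane semaphorin of class 4, went the other way and fell by 0.55 ± 0.11 (adjusted p = 0.00168). The falls of Sema3f (0.24 ± 0.07, adjusted p = 0.0119) and Sema4b (0.22 ± 0.06, 0.0137) were lost without wt 2 (adjusted p up to 0.0794) and wt 3 (up to 0.0615). Sema3c, a ligand of neuropilins with Plxnd1, had 582, 545 and 514 and 438, 483 and 497, lower by 0.21 ± 0.07 (adjusted p = 0.0368). That call was lost without wt 1, wt 2, S1pr2 null 1 or S1pr2 null 2, with differences of −0.25 to −0.16 and adjusted p of 0.0259 to 0.158 when 1 library was left out. Sema3e, the ligand that binds Plxnd1 without a neuropilin, had only 19 to 63 reads in any library and rose by 0.95 ± 0.27 (adjusted p = 0.0154), a call lost without wt 1, wt 3 or S1pr2 null 3 (adjusted p 0.00875 to 0.109). Sema3a was not called at 0.19 ± 0.16 (95% interval −0.16 to 0.54).

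Of their receptors Plxna1 rose by 0.31 ± 0.05 (adjusted p = 0.000468), from 2392 ± 2.36 to 2973 ± 79.2 normalised counts (SD, n = 3). Nrp2, the co-receptor for Sema3f, had 947, 799.8 and 905 in wt and 1198, 1236 and 1216 in the libraries labelled S1pr2 null, without overlap. Its rise of 0.46 ± 0.14 (adjusted p = 0.0208) was lost without wt 2, wt 3, S1pr2 null 2 or S1pr2 null 3 (differences of 0.39 to 0.51, adjusted p 0.000624 to 0.0985). Nrp1 (0.03 ± 0.06, 95% interval −0.10 to 0.15) and Plxnd1 (0.03 ± 0.08, −0.14 to 0.20) were not called, and none of the 3 B-type plexins was.

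A list of netrins with their receptors and of intracellular effectors held 46 further genes of the guidance pathways. Of these, 16 were higher and 5 lower in the libraries labelled S1pr2 null (12.6% and 13.3%). Plexin effectors accounted for 6 of the 16 and Eph effectors for 3. The collapsin response mediator Dpysl4 rose by 0.96 ± 0.11 (adjusted p = 1.16e-05), the Rac-inactivating protein Chn2 by 1.00 ± 0.20 (0.00166) and the netrin receptor Unc5c by 0.80 ± 0.14 (0.000516). Ngef, an exchange factor that acts below Epha4, fell by 1.33 ± 0.15 (9.93e-06), and netrin 1 (Ntn1) fell by 0.52 ± 0.11 (0.00199).

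With the antagonist JTE013, 32 of 57 guidance genes were called (56.1%), a share near the 52.2% of all genes tested, and they changed in both directions. Against control explants 12 were higher (25.9% of all genes tested) and 20 lower (26.2%), with a median log2 difference of −0.09 against 0.00 over all genes. By the criterion of the study 4 were lower, Plxnb1, Sema3f, Efna4 and Epha2 (5.18% of all genes), and 0 higher (3.08%), while 12 were higher in the quasi-likelihood test of edgeR, as given above, and 9 with DESeq2. Lower were 8 of 20 semaphorins, 4 of 12 Eph receptors, 3 of 8 ephrins, 2 of 9 plexins, 1 of 2 neuropilins, 1 of 3 Slits and 1 of 3 Robos. Over the fits that left out 1 library, 10 to 12 were higher and 17 to 23 lower, and 25 of the 32 calls stood in each of 21 other fits.

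Plxnb1, the receptor for Sema4d, changed most of the 4 that met the criterion. It had 3381, 3618 and 3474 normalised counts in control explants and 1923, 1758 and 1474 with JTE013, and fell by 1.02 ± 0.07 on the log2 scale (adjusted p = 5.42e-09). Every JTE library lay far below every control library, while in the whole pancreas Plxnb1 was at 3035, 2889 and 2993 in wt and 3021, 3078 and 2937 in the libraries labelled S1pr2 null, 0.02 ± 0.07 apart (95% interval −0.13 to 0.16). Sema3f, the secreted ligand of Nrp2, had 2254, 2391 and 2242 and 1198, 1351 and 1118, a fall of 0.91 ± 0.07 (adjusted p = 9.79e-09). Epha2, the receptor of ephrin-A1 in epithelia, had 351, 353 and 373 and 238, 187 and 213. It fell by 0.76 ± 0.09 (adjusted p = 4.25e-06) and the groups did not overlap. Efna4 had 418, 391 and 440.5 and 228, 218 and 261, a fall of 0.82 ± 0.09 (adjusted p = 1.27e-06), again without overlap. General epithelial markers were lower for 5 of 6 in the same comparison, with the ranges given above. Larger differences stood in genes with few reads, a fall of 1.55 ± 0.29 for the Eph receptor Epha8 (adjusted p = 0.000242) and a rise of 1.20 ± 0.26 for Epha5 (0.000974).

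**Figure D3:**
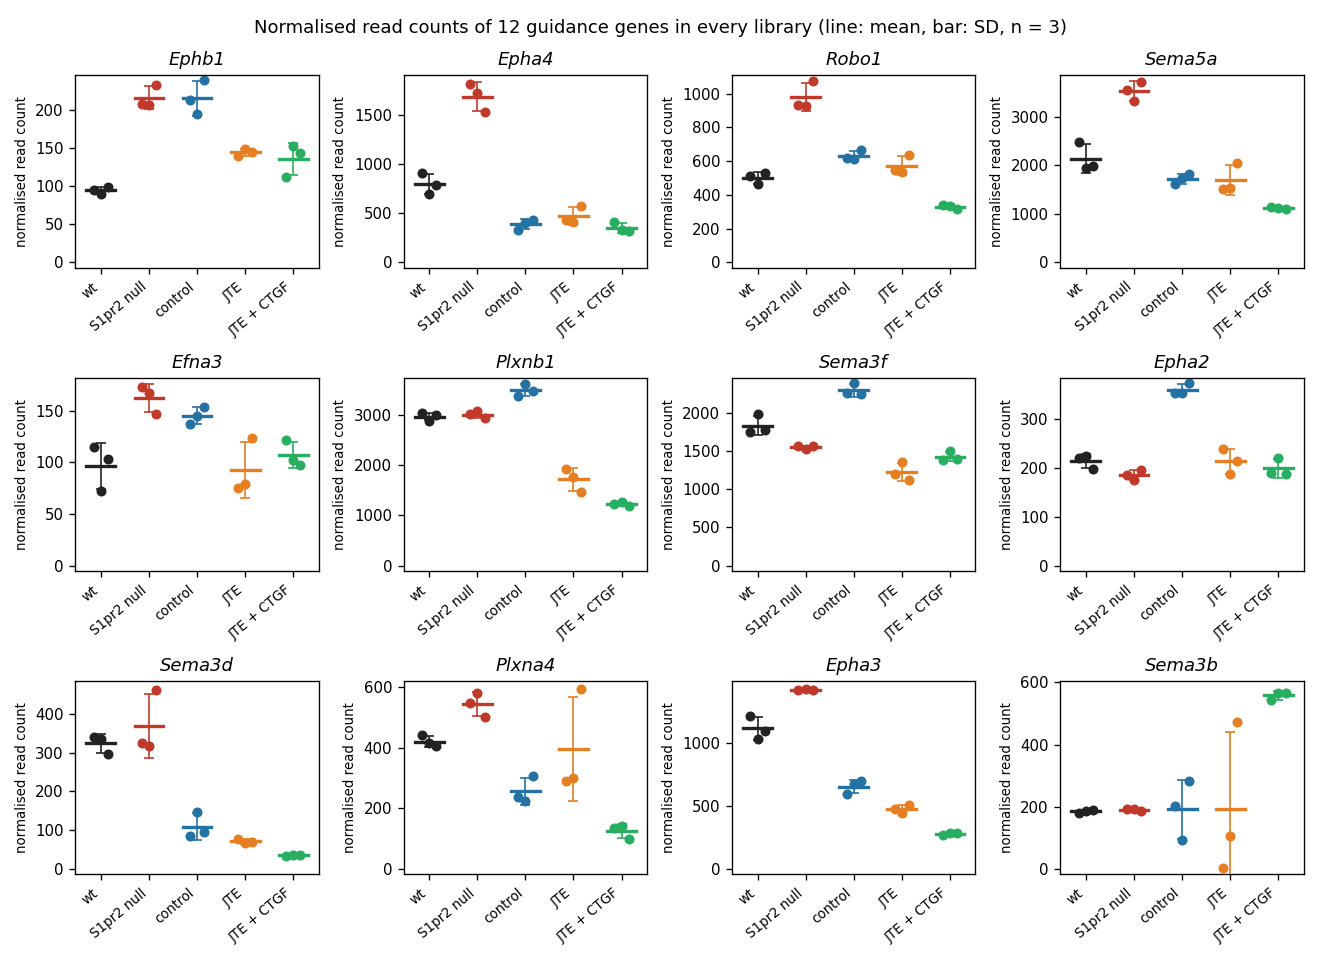
Normalised read count of selected guidance genes in each of the 15 libraries. Points are libraries, horizontal lines the means and bars the SD of 3 libraries, and the bar of Sema3b in JTE runs below the axis. Plxnb1 and Sema3f separate JTE from control explants in every library, Ephb1 and Robo1 separate the libraries labelled S1pr2 null from wt, and Sema3b ranges from 2.12 to 472 within JTE.

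Of the other receptors, Nrp1 had 3140, 3225 and 3393 normalised counts in control explants and 1937, 2014 and 2181 with JTE013. It fell by 0.67 ± 0.06 (adjusted p = 9.42e-08) with no overlap, beside the lower endothelial markers given above. Robo4, another endothelial gene, had 322, 278 and 352 and 251, 214 and 288, and its fall of 0.33 ± 0.10 (adjusted p = 0.0109) was lost without control 3 or JTE 2 (differences of −0.45 to −0.23, adjusted p 0.00158 to 0.0704). Plxnd1 (0.09 ± 0.08, 95% interval −0.09 to 0.26), Ephb4 (−0.10 ± 0.05, −0.22 to 0.01) and Ephb3 (0.04 ± 0.08, −0.13 to 0.21) were not called. Ephb2 rose by 0.27 ± 0.05 (adjusted p = 0.000269) and Ephb1 fell by 0.57 ± 0.11 (0.000421). Nrp2, the co-receptor for Sema3f, at 818, 852 and 968 and 621, 719 and 1056, was not called (−0.13 ± 0.14, adjusted p = 0.452), though it was lower without JTE 3 (−0.39 ± 0.10, adjusted p = 0.00418). Robo1 (−0.14 ± 0.08, adjusted p = 0.136) was likewise not called, and lower without JTE 3 (−0.23 ± 0.08, adjusted p = 0.0218). Robo2 stood at −0.05 ± 0.15 (95% interval −0.37 to 0.27).

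Of the 4 A-type plexins 3 were higher and none was lower. Plxna1 rose by 0.21 ± 0.06 (adjusted p = 0.00477) and Plxna3 by 0.34 ± 0.07 (0.000873), and their calls held without any 1 library. Plxna4, with 236, 224 and 306 and 291, 301 and 594, was called higher (0.64 ± 0.21, adjusted p = 0.0164) although the groups overlapped. Its call was lost without control 1, control 2 or JTE 3, and without JTE 3 the difference was 0.21 ± 0.13 (adjusted p = 0.176). Summed, the 4 genes went from 34.9 ± 1.58 to 41.2 ± 1.12 RPKM, while the 3 B-type plexins went from 105 ± 1.25 to 89.1 ± 0.842.

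Of the ligands 5 were higher, Slit2, Sema3c, Sema4f, Sema4g and Sema5b. Sema4g rose by 0.63 ± 0.09 (adjusted p = 1.16e-05), Sema5b by 0.44 ± 0.12 (0.00426) and Sema4f by 0.61 ± 0.18 (0.00951), of which only the last lost its call in another fit, with DESeq2. Slit2 had 1013, 1044 and 1110 normalised counts in control explants and 1275, 1338 and 1662 with JTE013, a rise of 0.43 ± 0.08 (adjusted p = 0.000241), whereas Slit3 was not called (0.02 ± 0.09, 95% interval −0.17 to 0.21). Slit1, at only 13 to 177 reads over all libraries, fell by 1.41 ± 0.23 (8.61e-05). Efnb2, the arterial ligand of Ephb4, fell by 0.28 ± 0.06 (adjusted p = 0.00107), from 1148 ± 33.0 to 948 ± 51.1 normalised counts (SD, n = 3), while Efnb1 (−0.02 ± 0.05, 95% interval −0.13 to 0.09) and Efna1 (−0.18 ± 0.08, −0.36 to −0.01) were not called. Efna1 was lower in 2 of 21 other fits, with the size factors of DESeq2 as the scaling and without control 2. Its adjusted p was 0.0315 to 0.311 when 1 library was left out. Sema3c rose by 0.19 ± 0.06 (adjusted p = 0.0209), a call lost without control 2, control 3 or JTE 2 (adjusted p 0.0113 to 0.128), and Sema3e was not called (0.22 ± 0.23). Sema3a, with 110.4, 119 and 122 and 66.7, 65.3 and 128, was not called (−0.41 ± 0.22, adjusted p = 0.126), and without JTE 3 it was lower (−0.83 ± 0.19, adjusted p = 0.00185). Of the 46 further pathway genes 11 were higher (25.9% of all genes) and 21 lower (26.2%). Among them 9 of 15 plexin effectors were lower, and the netrin receptors were split, with Unc5b up by 0.94 ± 0.07 (adjusted p = 2.71e-08) and Unc5a down by 1.29 ± 0.10 (2.39e-08).

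Explants with CTGF and the antagonist had lower levels of most plexins, Slits and Robos and of several semaphorins than those with the antagonist alone. Against JTE 25 genes were lower (16.8% of all genes tested) and 4 higher (13.6%), 29 in all against 30.4% of all genes, with a median log2 difference of −0.20 against 0.00 over all genes. Lower were 7 of 9 plexins, all 4 A-type plexins among them, 2 of 3 Slits, 2 of 3 Robos, 6 of 20 semaphorins, 5 of 12 Eph receptors, 2 of 8 ephrins and 1 of 2 neuropilins. By the criterion of the study 3 were lower (1.3%) and 1 was higher (0.443%). Of the 29 calls 19 stood in each of 21 other fits. Over the fits without 1 library 20 to 26 were lower and 1 to 6 higher, with 1 higher without JTE 1 and 2 without JTE + CTGF 3.

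Plxna4, a partner of neuropilins for Sema3a, changed most. It had 291, 301 and 594 normalised counts in JTE and 134, 142 and 98.3 with CTGF added, lower by 1.67 ± 0.23 on the log2 scale (adjusted p = 5.5e-05), and without JTE 3 the difference was −1.21 ± 0.14 (adjusted p = 1.02e-05). All JTE libraries lay above all JTE + CTGF libraries. Robo1 had 545, 535 and 636 and 341, 334 and 317, a fall of 0.79 ± 0.08 (adjusted p = 3.92e-06) without overlap. Epha3 had 477, 444 and 505 and 272, 285 and 282, a fall of 0.77 ± 0.08 (adjusted p = 3.26e-06), with 3 closely spaced libraries in each group. Sema3b also met the criterion, which asks for an adjusted p of at most 0.1, but was not called here. It had 2.12, 104 and 472 in JTE and 542, 567 and 566 with CTGF, higher by 1.498 ± 0.57 (adjusted p = 0.0572), and without JTE 3 the difference was 3.41 ± 0.47 (5.19e-05).

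Of the ligands, Slit2 fell by 0.54 ± 0.08 (adjusted p = 0.000103) and Slit3 by 0.59 ± 0.09 (0.000161), from 1425 ± 208 and 1023 ± 152 to 980.2 ± 21.9 and 679 ± 83.5 normalised counts (SD, n = 3). Sema3c fell by 0.47 ± 0.07 (4.61e-05) and Sema5a by 0.61 ± 0.11 (0.000409). Sema3f, lower in JTE than in control, was higher with CTGF than with JTE alone by 0.23 ± 0.07 (adjusted p = 0.0173), a call lost without JTE 1 or JTE + CTGF 2 (differences of 0.19 to 0.30, adjusted p 0.00309 to 0.0784). Its level with CTGF, 1383, 1503 and 1398, stayed below every control library. Among receptors Plxnb1 fell by 0.49 ± 0.07 (8.88e-05), Plxnb2 by 0.24 ± 0.04 (0.000412) and Robo2 by 0.62 ± 0.16 (0.00716). Epha2 was not called against JTE (−0.10 ± 0.10, 95% interval −0.31 to 0.11), nor was Efna4 (0.05 ± 0.10, −0.15 to 0.26). In the same comparison 3 of 8 endothelial markers were higher and 1 lower (118 to 139.9 RPKM summed, against 116 to 130 in JTE). Of 4 red blood cell markers 3 were higher (123 to 196 against 20.6 to 62.4). The part of both lists in these results was not tested.

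The calls of several other vascular and boundary genes against JTE were lost in at least 1 of the fits that left out a library. Nrp1 fell by 0.23 ± 0.06 (adjusted p = 0.00716), which was not called without JTE 3 (−0.15 ± 0.06, adjusted p = 0.0762). Plxnd1 fell by 0.25 ± 0.08 (0.031), lost without JTE 1, JTE 2, JTE + CTGF 1 or JTE + CTGF 3 (adjusted p 0.000836 to 0.139). Falls of Efnb2 (0.20 ± 0.06, 0.0231) and Ephb4 (0.18 ± 0.05, 0.0214) were lost without JTE 1, JTE 2, JTE + CTGF 1 or JTE + CTGF 3 (0.0133 to 0.0973) and without JTE 1, JTE 3 or JTE + CTGF 3 (0.014 to 0.156), in that order. The rise of Efna1 (0.24 ± 0.08, 0.0346) was lost without JTE 1, JTE 2, JTE + CTGF 2 or JTE + CTGF 3 (0.0209 to 0.176), and the fall of Sema3e (0.85 ± 0.25, 0.017) without JTE + CTGF 2 (0.0113 to 0.0861). Ephb2 fell by 0.22 ± 0.05 (0.00353), and this call held without any 1 library. Ephb3 (0.08 ± 0.08, 95% interval −0.09 to 0.26) and Efnb1 (−0.12 ± 0.05, −0.23 to −0.01) were not called, here or in any of 21 other fits. Sema3a (−0.68 ± 0.25, 95% interval −1.22 to −0.14) was not called, but was lower in 6 of 21 other fits, among them those without JTE 1, JTE 2 or S1pr2 null 3, and stood at −0.23 ± 0.22 without JTE 3. Nrp2 (−0.31 ± 0.15, −0.62 to 0.00) was not called either, was lower in 2 of the 21, one of them without JTE 1, and stood at −0.01 ± 0.11 without JTE 3. Robo4 (0.25 ± 0.10, 0.04 to 0.47) was not called, and was higher without JTE 3 (0.41 ± 0.10, adjusted p = 0.00736). Of the 46 further pathway genes 22 were lower (16.8% of all genes) and 3 higher (13.6%) than in JTE, with Robo effectors lower in 5 of 7, among them the actin regulator Enah at −0.59 ± 0.06 (adjusted p = 1.3e-06).

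Against control explants in standard medium, the explants with both JTE013 and CTGF had 34 lower (33.0% of all genes tested) and 6 higher guidance genes (28.1%), 40 in all against 61.1% of all genes, with a median log2 difference of −0.29 against −0.03 over all genes. The 6 higher genes were semaphorins, Sema3b, Sema4b, Sema4f, Sema4g, Sema5b and Sema6c. Lower were 11 of 20 semaphorins, among them 6 of 7 of class 3 and 3 of 4 of class 6. Lower too were 6 of 8 ephrins, 6 of 9 plexins and both neuropilins. The same held for 5 of 12 Eph receptors, 2 of 3 Slits and 2 of 3 Robos. By the criterion of the study 11 were lower (7.39%) and 1 was higher (4.39%). Over the fits that left out 1 library 29 to 34 were lower and 4 to 7 higher, and 31 of the 40 calls stood in each of 21 other fits. This comparison, that of JTE with control and that of JTE + CTGF with JTE share libraries, so each is given with its own values only.

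Sema3d, a secreted semaphorin, had 84.9, 148 and 94.8 normalised counts in control explants and 32.0, 36.6 and 36.7 with JTE013 and CTGF, a fall of 1.64 ± 0.24 (adjusted p = 1.56e-05) with control 2 well above the other control libraries. Sema3a, the ligand of Nrp1, had 110.4, 119 and 122 and 43.5, 60.7 and 60.4, a fall of 1.09 ± 0.25 (0.000994). Sema6a, a transmembrane ligand of A-type plexins, had 1266, 1159 and 1204 and 617, 646 and 602. It fell by 0.96 ± 0.07 (7.57e-09) and the groups were far apart. Among receptors, Plxnb1 had 1230, 1260 and 1180 against 3381, 3618 and 3474 in control, a fall of 1.51 ± 0.07 (5.1e-11). Epha3 had 592, 671 and 694 and 272, 285 and 282, a fall of 1.22 ± 0.08 (1.46e-09). Both groups were tight, and none of their libraries overlapped. Plxna4 had 236, 224 and 306 and 134, 142 and 98.3, a fall of 1.03 ± 0.25 (0.00162), and Robo1 had 619, 611 and 666 and 341, 334 and 317, a fall of 0.93 ± 0.08 (6.95e-08). Sema3b rose by 1.54 ± 0.58 (0.0291), from 203, 92.5 and 281 to 542, 567 and 566, and this call was lost without control 1, control 2, JTE + CTGF 1, JTE + CTGF 2 or JTE + CTGF 3 (differences of 1.20 to 1.93, adjusted p 0.00049 to 0.109).

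Of the remaining vascular, epithelial and Slit pathway genes, Nrp1 fell by 0.90 ± 0.06 (adjusted p = 2.18e-09), Epha2 by 0.86 ± 0.10 (8.61e-07), Robo2 by 0.67 ± 0.16 (0.00166), Slit3 by 0.58 ± 0.09 (4.95e-05), Efnb2 by 0.48 ± 0.06 (4.73e-06), Sema3c by 0.29 ± 0.07 (0.00119) and Ephb4 by 0.28 ± 0.05 (0.000295). Smaller falls of Nrp2 (0.44 ± 0.15, 0.0153), Efnb1 (0.14 ± 0.05, 0.034) and Sema3e (0.64 ± 0.26, 0.0418) each lost their call in some fits without 1 library. For Nrp2 these left out control 3 or JTE + CTGF 3 (adjusted p 0.000948 to 0.0881), for Efnb1 control 1, control 2, JTE 3, JTE + CTGF 2 or JTE + CTGF 3 (0.0273 to 0.107) and for Sema3e control 1, control 2, JTE 3, JTE + CTGF 2 or JTE + CTGF 3 (0.0219 to 0.193). Slit2, Plxnd1, Ephb2, Ephb3, Efna1 and Robo4 were not called, at −0.11 ± 0.08, −0.16 ± 0.08, 0.05 ± 0.05, 0.12 ± 0.08, 0.06 ± 0.08 and −0.08 ± 0.10. Plxnd1 was lower in 2 of 21 other fits, with library size alone and without JTE + CTGF 2. Its adjusted p was 0.00184 to 0.413 when 1 library was left out. Ephb3 was higher without control 3 (adjusted p 0.0109 to 0.627). Pathway genes outside the families were lower in 26 of 46 (33.0% of all genes) and higher in 5 (28.1%).

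Cell type markers moved in the same comparison of JTE + CTGF with control. Lower were 5 of 6 epithelial markers (894 to 1030 RPKM summed, against 1438 to 1653 in control), 5 of 6 endocrine markers (545 to 959.8 against 4233 to 4769), 3 of 4 markers of the mesothelial list, which holds Krt19 (54.3 to 57.9 against 97.0 to 102), and all 4 leukocyte markers (23.65 to 31.6 against 46.6 to 54.5). Of 8 endothelial markers 6 were lower and 2 higher (118 to 139.9 against 146 to 175). All 4 red blood cell markers were higher (123 to 196 against 16.6 to 45.1). The part of these lists in the 34 lower and 6 higher guidance genes was not tested.

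**Figure D4:**
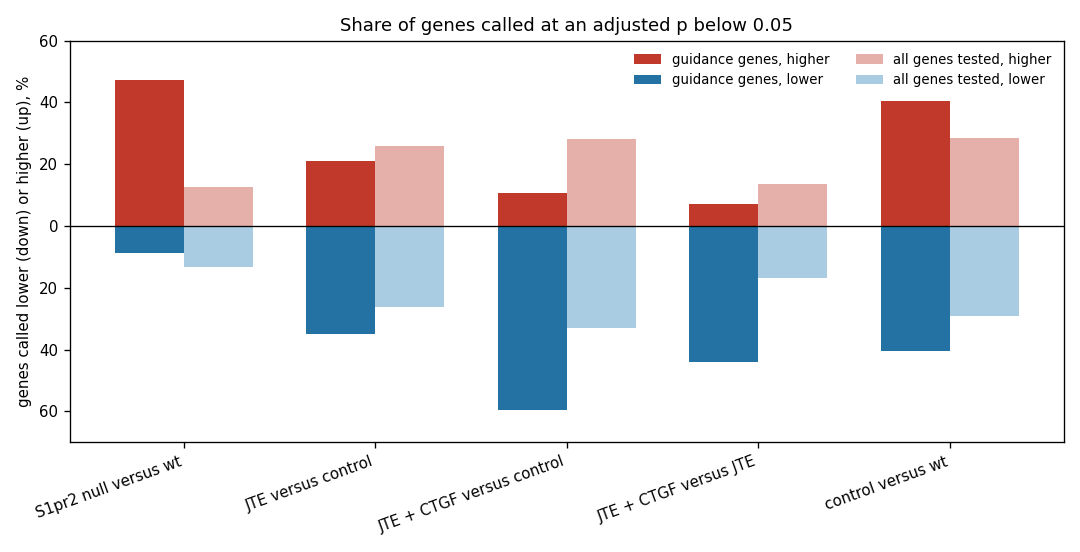
Percentage of tested guidance genes and of all 16245 genes tested that were called higher (upward bars) or lower (downward bars) in each comparison. In the libraries labelled S1pr2 null 27 of 57 guidance genes are higher against 12.6% of all genes, and in JTE + CTGF against JTE 25 of 57 are lower against 16.8%.

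Control explants differ from the wt pancreas in culture, in 2 days of further development and in holding the dorsal bud only, and these cannot be told apart. Guidance genes changed in both directions, and 46 of 57 (80.7%) were called against 57.8% of all genes tested. Of the 57, 23 were higher (28.5% of all genes tested) and 23 lower (29.3%), and 10 were higher (7.99%) and 10 lower (4.14%) by the criterion of the study. With library size alone as the scaling, the median of all genes moved from −0.02 to −0.17 on the log2 scale, and 16 guidance genes were higher and 26 lower. All 3 Slits were lower, the 8 ephrins were split evenly, and 10 of 20 semaphorins were higher and 6 lower. Of the 46 calls 35 stood in each of 21 other fits. Cell type markers differed between these groups too. All 4 red blood cell markers were lower in control explants (16.6 to 45.1 RPKM summed, against 1087 to 1356 in wt), 3 of 4 leukocyte markers were higher (46.6 to 54.5 against 19.2 to 20.7), and 4 of 6 epithelial markers were higher (1438 to 1653 against 910 to 968). Of 8 endothelial markers 4 were higher and 3 lower (146 to 175 against 131 to 137), and of 6 endocrine markers 3 were higher and 1 lower (4233 to 4769 against 1176 to 1413). Their part in the calls was not tested.

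Among secreted ligands Sema3a had 424, 335 and 358 normalised counts in wt and 110.4, 119 and 122 in control explants, a fall of 1.67 ± 0.19 (adjusted p = 9.96e-07). Sema3d had 340.3, 335 and 296 and 84.9, 148 and 94.8, a fall of 1.56 ± 0.17 (7.77e-07), again with every explant library below every wt library. Slit2 fell by 1.04 ± 0.08 (9.46e-09), whereas Sema3c rose by 1.01 ± 0.07 (1.92e-09) from 547 ± 33.7 to 1099 ± 27.9 normalised counts (SD, n = 3). Of the membrane-bound ligands, Sema7a had 250.3, 323 and 325 and 625, 695 and 754, a rise of 1.21 ± 0.11 (4.65e-08). Efnb2 had 558, 481 and 543 and 1139, 1121 and 1185, a rise of 1.12 ± 0.06 (2.48e-10). Sema6d, a ligand of Plxna1, had 569.8, 503 and 509 and 1009, 1163 and 1092, a rise of 1.05 ± 0.08 (1.88e-08). These groups did not overlap for any of the 3 ligands.

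Receptors also parted. Robo2 had 92.7, 93.9 and 65.7 normalised counts in wt and 258, 216 and 238 in control explants, a rise of 1.496 ± 0.17 (adjusted p = 9.15e-07). Ephb1 had 94.5, 90.0 and 99.5 and 212, 194 and 238, a rise of 1.18 ± 0.12 (2.39e-07). Its relative Ephb2 had 1439, 1412 and 1344 and 692, 630.4 and 665, a fall of 1.08 ± 0.05 (1.76e-11). Ephb1 and Ephb2, receptors of one class, thus moved in opposite directions with libraries that did not overlap. Ephb3 fell by 0.83 ± 0.08 (1.21e-07), Robo4 fell by 0.48 ± 0.10 (0.000372) and Epha2 rose by 0.75 ± 0.09 (3.03e-06). Robo1, Nrp1, Efna1 and Sema3e rose by 0.34 ± 0.08, 0.21 ± 0.06, 0.71 ± 0.08 and 1.29 ± 0.27, Efnb1 and Slit3 fell by 0.31 ± 0.05 and 0.27 ± 0.09, and Nrp2, Plxnd1 and Ephb4 were not called. The call of Slit3 was lost without control 2 (adjusted p up to 0.056), and those of Robo1 and Nrp1 were lost with library size alone. Of the 46 further pathway genes 23 were higher (28.5% of all genes) and 11 lower (29.3%).

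The differences by genotype label and by antagonist were tested against each other, as the JTE difference from control minus the difference of the libraries labelled S1pr2 null from wt, 2 comparisons with no shared library. They differed for 35 of 57 guidance genes (42.9% of all genes tested), with a more negative JTE response in 30 (21.5%) and a more positive one in 5 (21.5%). The median difference of responses was −0.40, against 0.00 over all genes. More negative were 7 of 8 ephrins, 8 of 12 Eph receptors, 8 of 20 semaphorins, both neuropilins, 2 of 9 plexins, 1 of 3 Slits and 2 of 3 Robos. The genotypes and the explants also differ in culture, stage and dorsal origin, which cannot be told apart from the way the receptor was affected.

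**Figure D5:**
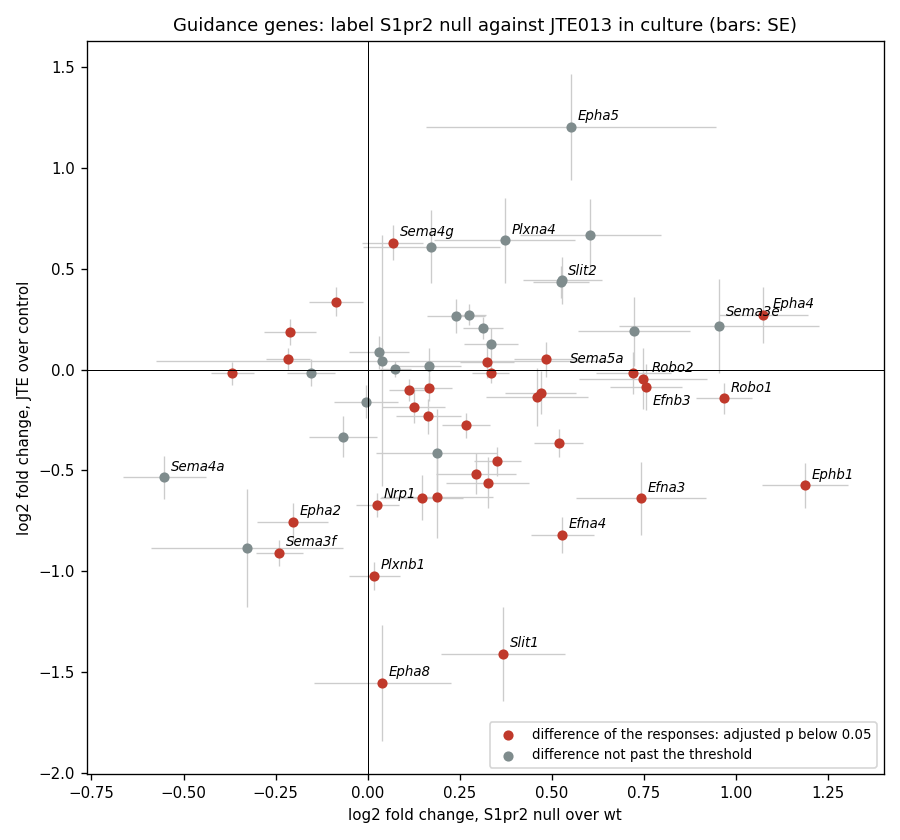
Log2 difference of each tested guidance gene in JTE against control explants (vertical) plotted against that in the libraries labelled S1pr2 null against wt (horizontal). Each point is a gene with bars for its SE, and red points differ between the responses at an adjusted p below 0.05. Ephb1, Efna4 and Efna3 lie to the right of 0 and below 0, and Plxnb1 lies near 0 across and at −1.02 down.

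Ephb1 and the sparsely read Slit1 (−1.78 ± 0.29, adjusted p = 0.00012) differed most. Ephb1 stood at 1.19 ± 0.12 in the libraries labelled S1pr2 null and −0.57 ± 0.11 with JTE013, a difference of −1.76 ± 0.16 (adjusted p = 4.1e-07). Efna3 (0.74 ± 0.18 and −0.64 ± 0.18) and Efna4 (0.53 ± 0.09 and −0.82 ± 0.09) showed the same opposition, with differences of −1.38 ± 0.25 (0.000355) and −1.35 ± 0.12 (4.15e-07). Of the 27 genes higher in the libraries labelled S1pr2 null, 7 were lower with JTE013, 6 were higher and 14 were not called. The 7 were Efna3, Efna4, Efnb2, Epha3, Ephb1, Sema6a and Sema6b, and the 6 were Epha7, Ephb2, Plxna1, Plxnc1, Sema5b and Slit2. Over all genes 25.6% of those higher in the libraries labelled S1pr2 null were lower with JTE013 and 26.6% were higher, against 25.9% and 22.2% of the guidance genes. Sema3c was the opposite case, at −0.21 ± 0.07 and 0.19 ± 0.06, a difference of 0.40 ± 0.10 (0.00295). The differences of Plxnd1, Ephb2 and Slit2 did not pass the threshold, with 95% intervals of the difference of −0.19 to 0.30, −0.15 to 0.14 and −0.33 to 0.14, though without JTE 3 that of Slit2 did (−0.22 ± 0.08, adjusted p = 0.042).

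Set beside the comparison of JTE + CTGF with JTE, which also shares no library with the whole pancreata, 13 of the 27 genes higher in the libraries labelled S1pr2 null (48.1%, or 52.0% of the 25) were lower when CTGF was added. Over all genes the shares were 33.3% and 24.9%. Among the 57 guidance genes tested, however, 43.9% were called lower with CTGF against JTE, and 47.4% were called above wt by genotype label. The 48.1% and 52.0% thus lay near the shares of the guidance genes at large. A link between the calls beyond these shares was not tested. The 13 comprised receptors (Epha3, Epha4, Ephb2, Plxna1, Plxna2, Robo1 and Robo2) and ligands (Efna5, Efnb2, Sema3e, Sema5a, Sema6a and Slit2). The calls of Efna5, Epha3, Ephb2, Plxna1, Robo1, Robo2, Sema5a, Sema6a and Slit2 held in both comparisons without any 1 library. Of the 13, Robo1 stood at 0.97 ± 0.08 and −0.79 ± 0.08, and Slit2 at 0.53 ± 0.08 and −0.54 ± 0.08.

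Replicates of guidance genes varied most in JTE, with a median coefficient of variation over genes of 9.34% against 4.55% to 7.81% in the other groups. JTE 3 was the highest JTE library for 36 of the 57 tested genes (63.2%, against 39.3% of all genes) and exceeded 1.3 times the mean of the other JTE libraries for 11 (19.3%, against 9.91%). The 11 were Sema3b, Plxna4, Sema3a, Efna5, Epha5, Efna3, Nrp2, Plxnc1, Epha4, Sema5a and Efnb3. In summed markers JTE 3 was at 3689 RPKM for pancreas epithelium against 6156 and 7284 in JTE 1 and 2, at 479 for endocrine cells against 684 and 709, and at 1481 for mesenchyme against 1214 and 1309. Most reads of the pancreas epithelium list were from Cpa1, with 83295 in JTE 3 against 123612 and 152152. Pdx1 had 899 against 891 and 1059, and Nkx6-1 had 2088 against 2266 and 2226. The part of these markers in the guidance genes was not tested. The ratio was largest for Sema3b, at 8.88, and next for Plxna4, at 2.01, and Sema3a, at 1.95. Without JTE 3, 23 guidance genes were lower with JTE013 in place of 20. In raw reads Sema3b had 2, 102 and 507 in JTE and 191, 92 and 270 in control, against 199, 195 and 201 in wt, 196, 208 and 221 in the libraries labelled S1pr2 null and 474, 495 and 478 with JTE013 and CTGF. The 3 other groups were thus tight and the explants in standard medium or JTE013 alone were not. JTE against control was not called for Sema3b (0.04 ± 0.62, 95% interval −1.27 to 1.36), and without JTE 3 it was lower (−1.83 ± 0.51, adjusted p = 0.00669).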

How the data were processed

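Libraries were made with a strand-specific poly(A) kit and, per the labels and the methods of the study, reads were aligned with GSNAP to mm10 and counted per gene (Ensembl 69) with featureCounts 1.4.6. The strand setting of the counting is not given in the sources used here. The deposited values are raw counts per gene, 1 column per library, with no filter or scaling by the authors. Symbols were taken from GENCODE M21, which held 97.86% of the gene IDs.

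Counts were tested with edgeR 4.0.16 (R 4.3.3; TMM scaling, filterByExpr, quasi-likelihood F-test, 1 coefficient per group over all 15 libraries), with Benjamini-Hochberg adjustment over the 16245 genes tested, and the steps were tested on simulated data. Nothing in the sources says whether the pools of one group shared a litter, so p-values measure the spread between pools. The biological coefficient of variation was 7.3%. Standard errors were taken from the F statistic and intervals from a t distribution with 16.85 degrees of freedom. RPKM used the gene lengths in the deposited table and the scaled library sizes. Alternatives were other scalings, no filter, DESeq2 1.42.0, the libraries of the comparison alone, a replicate block and leaving out each library.

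Every member was named with its level. Members that met the criterion of the study in a comparison, at most 8 by size of change, were given in every library, and 18 listed members were described in every comparison. The members, gene lists and tests were chosen with earlier results of these data known. Promoters came from RefSeq.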

Additional observations from a re-analysis of the deposited data

Results flagged for a closer look

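Among the named genes, 23 responded differently to JTE013 in explants than they differed by genotype label in the whole pancreas, by the test of the difference itself (edgeR quasi-likelihood, adjusted p below 0.05). Some named genes were picked for large changes in the comparisons that form this difference, so the number 23 is no measure of how often responses differed. By the same test 61.4% of the 57 guidance genes tested differed, against 42.9% of all genes tested. Values are the log2 difference of JTE from control minus that of the libraries labelled S1pr2 null from wt. Ephrins were at −0.31 (Efna1), −1.38 (Efna3), −1.35 (Efna4), −0.35 (Efnb1), −0.54 (Efnb2) and −0.84 (Efnb3). Eph receptors were at −0.55 (Epha2), −0.81 (Epha3), −0.80 (Epha4), −1.76 (Ephb1), −0.29 (Ephb3) and −0.21 (Ephb4). Semaphorins were at 0.40 (Sema3c), the only positive value of the 23, and at −0.82 (Sema3d), −0.67 (Sema3f), −0.74 (Sema5a), −0.88 (Sema6a) and −0.81 (Sema7a). Their receptors were at −0.70 (Nrp1), −0.60 (Nrp2) and −1.04 (Plxnb1), and the Slit receptors at −1.11 (Robo1) and −0.79 (Robo2). Some of these calls were lost in part of 20 other fits: Efna1 in 13 (adjusted p 0.022 to 0.124 when 1 library was left out), Ephb3 in 11 (0.0136 to 0.155), Ephb4 in 6 (0.0201 to 0.0837), Nrp2 in 4 (6.84e-05 to 0.0608) and Sema3d in 1, without control 2 (0.00585 to 0.0711). For Nrp2 the libraries were wt 2, control 3, JTE 1 or JTE 2, and for Ephb4, beside the fit with no filter, wt 3, S1pr2 null 1, S1pr2 null 2, control 3 or JTE 2.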

How the results depend on the processing

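When 1 library was left out, members higher and lower numbered 21 to 28 and 3 to 5 for the libraries labelled S1pr2 null against wt, 10 to 12 and 17 to 23 for JTE against control, 4 to 7 and 29 to 34 for JTE + CTGF against control, 1 to 6 and 20 to 26 for JTE + CTGF against JTE, and 21 to 24 and 20 to 23 for control against wt, and 31 to 40 differed between the JTE and genotype responses. Without wt 2, 3 members were lower in the libraries labelled S1pr2 null in place of 5. Against JTE, 4 members were higher with CTGF, 7 with no filter on low counts, 1 without JTE 1 and 2 without JTE + CTGF 3. The cause of these shifts was not tested. With library size only, control against wt went from 23 higher and 23 lower to 16 and 26, with the median of all genes at −0.17 in place of −0.02. The other counts, under the other scalings, DESeq2 and the libraries of the comparison alone, stayed within 1.5 times the reported ones.

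Over all groups the same replicate numbers in the labels did not mark pairs in general: 2 of 30 same-numbered pairs of libraries had deviations from their group means correlated above 0.1 (−0.10 to 0.23), and 4 of 15 libraries correlated best with their own number. Both pairs above 0.1 were of control with JTE, control 2 with JTE 2 (0.13) and control 3 with JTE 3 (0.23). Control 2 with JTE 1, of another number, was at 0.14. Shared preparation of these explants was not tested. With the replicate block, 28 were higher and 5 lower in the libraries labelled S1pr2 null, 12 and 20 in JTE, 6 and 34 in JTE + CTGF against control, 6 and 26 against JTE, 23 and 23 in control against wt, and 34 differed between responses.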
